A study of Mus musculus with 15 samples.

Results

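The core regions of decreased H2A.X were the stretches of the mouse genome that lay inside a decreased domain in every one of the 8 wide domain lists of this series. They were found by cutting 16 autosomes (all but chromosomes 6, 8 and 13) into bins of 1300 bp, keeping the bins covered in all 8 lists and joining adjacent ones. This gave 1758 regions made of 142256 bins out of 1554051, or 185 Mb of a span of 2020 Mb (9.15%). The regions were chosen by the coverage of these deposited lists, which also supply their lengths, edges and scores, so these values are given as descriptions without a test.

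H2A.X is a variant of histone H2A that is built into nucleosomes throughout the genome and is best known for its phosphorylation beside DNA double-strand breaks. Mapping the variant by an antibody, labelled here as against H2A.X, shows where it is deposited. Embryonic stem cells grown with inhibitors of Mek and Gsk3 (2i) are held in a more uniform undifferentiated state than cells in serum, and the series asks whether H2A.X deposition differs between such cultures.

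The lists came from native ChIP-seq of mouse embryonic stem cell lines derived from 129S6 X C57B6 blastocysts, with MNase-digested chromatin that was not crosslinked. There were 3 lists of cells in 2i/LIF (lines 34, 35 and 37), a medium without serum that holds LIF with 1 µM PD0325901, which inhibits Mek, and 3 µM CHIR99021, which inhibits Gsk3. A further 2 lists were of cells in 2i/LIF and then Serum/LIF (lines 34 and 37), called here cells moved to serum. The last 3 were of cells in Serum/LIF on irradiated feeder cells whose titles carry the letters XS (lines 30, 31 and 32), and 2 much smaller Serum/LIF lists with the letter S (lines 35 and 37) took no part in choosing the regions. The line numbers are those of the titles, the letters are not explained in the labels, and lines 30 to 32 occur only as XS samples, so line and XS cannot be told apart. The growth protocol names feeder cells for the serum culture only, and their share of the chromatin is not given, so their part in the results was not tested. The lists are named as decreased against a control, which the labels leave unnamed, while the state column of every domain calls the sample enriched; the direction used here is that of the name. No read counts come with the lists, so the depth behind each is unknown.

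The 8 lists did not limit the core equally, and the list of XS line 32 limited it most. Over the 16 chromosomes, the 2i/LIF lists of lines 34, 35 and 37 covered 34.6%, 78.5% and 46.4% of the bins. Lists of cells moved to serum covered 47.4% (line 34) and 46.7% (line 37). The XS lists of lines 30, 31 and 32 covered 37.9%, 73.5% and 32.2%. The S lists covered 0.0427% (line 35) and 0.384% (line 37). Line 32 thus had the narrowest of the wide lists, but 2i/LIF line 34 and XS line 30 were almost as narrow and took away far less.

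Bins in exactly 7 lists, just outside the core, made up 221 Mb, and 89.5% of that length (198 Mb) was missing from XS line 32 alone. The next most frequent single absence was that of 2i/LIF line 34, with 8.23 Mb, followed by XS line 30 with 5.96 Mb and 2i/LIF line 37 with 3.67 Mb. Each of the other 4 lists was the single missing one over 1.05 to 1.80 Mb. Intersecting 7 lists without XS line 32 gave 1698 regions over 383 Mb, 2.07 times the core length, whereas leaving out any other single list gave 186 to 193 Mb. By the rule the core is the part of any 7 lists that the remaining list also covered, and leaving out XS line 32 changed its length most.

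**Figure D1:**
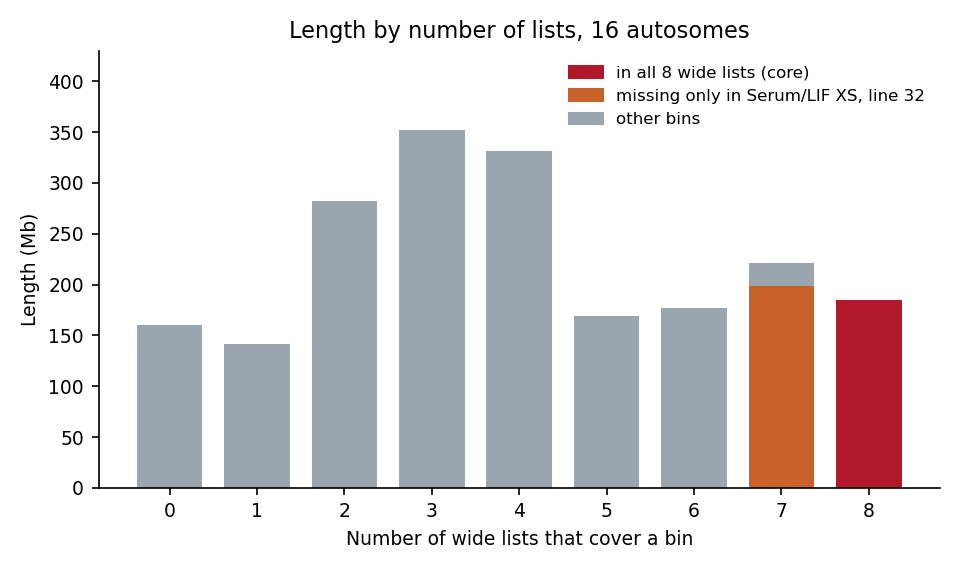
Length of the 16 autosomes (Mb) by the number of wide lists that cover a bin; red marks the core, orange the bins covered in 7 lists and missing only in XS line 32, grey all other bins. The core of 185 Mb and the 198 Mb missing only in XS line 32 are each longer than the classes of 5 and 6 lists, at 169 and 177 Mb.

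Going from culture to culture, all 3 lists of cells in 2i/LIF shared 632 Mb, which was 31.3% of the span. Of this, 87.2% (551 Mb) was also in both lists of cells moved to serum. XS line 31 retained 90.3% of that length and XS line 30 retained 77.0% of what was then left, which brought it to 383 Mb. XS line 32 held 48.3% of those 383 Mb. The core was 29.3% of the length common to the 2i/LIF lists, 21.7% of that common to the lists of cells moved to serum and 42.8% of that common to the XS lists. The cultures differ in the number of lists, and the XS lists include line 32, so these shares do not compare cultures. Set against whole lists, the core made up 11.7% to 26.4% of the length of the 2i/LIF lists, 19.3% and 19.6% of the lists of lines 34 and 37 moved to serum, and 12.5% to 28.4% of the XS lists.

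The coverage of a list could also be read against the number of other lists that covered a bin. From 4 other lists upward, the covered share was higher with each further list in all 7 lists other than XS line 32. For 2i/LIF line 34, the covered share of a bin class was 23.2% where 4 of the other 7 lists covered it, 64.3% with 5, 88.3% with 6 and 95.7% with 7. The list of line 37 moved to serum had 35.02%, 80.4%, 96.7% and 99.4%. Dips occurred at fewer lists or were smaller in other lists: line 37 moved to serum had 31.5% with 1 other list and 25.6% with 3, XS line 30 had 38.5% with 3 and 30.3% with 4, and XS line 31 had 83.2% with 3 and 73.8% with 4. For XS line 32 the shares were 51.0% where 3 other lists covered a bin, 21.7% with 4, 11.8% with 5, 12.7% with 6 and 48.3% with 7. With all 7 others, every other list reached 95.7% or more. Of its 650 Mb, 28.4% was core, 30.95% was shared with 3 other lists and 24.4% with 2, and only 2.73% and 3.57% with 5 and 6. The second largest class of its length, after the core, was the 166 Mb that it shared with 2i/LIF line 35, XS line 30 and XS line 31 and with no list of the other 4; a further 132 Mb was shared with 2i/LIF line 35 and XS line 31 only. Among all 256 possible combinations of the 8 lists, the core ranked second by length behind the combination of all lists but XS line 32.

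The core regions were short against the domains they lay in. Their median length was 66.3 kb, with quartiles at 37.7 and 122 kb, the shortest was a single bin of 1.30 kb and the longest 1508 kb. A total of 1724 regions were at least 10 kb long and held 99.9% of the core length, and 34 were shorter, 6 of them single bins. There were 561 regions of at least 100 kb, which held 68.1% of the length, 31 of at least 500 kb with 13.5% and 5 of at least 1000 kb with 3.34%. The 296 longest regions, 16.8% of all, held 50% of the core length. Without XS line 32, the regions common to the 7 other lists had a median of 140 kb and the longest measured 2332 kb.

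Most core regions were whole domains of XS line 32, and small pieces of the domains of the other lists. Of the 1758 regions, 1177 (67.0%) coincided at both ends with a domain of XS line 32, compared with 3 to 11 for each other list. The domain that held a region reached beyond it, both sides added, by a median of 608 kb (line 34), 1003 kb (line 35) and 634 kb (line 37) in 2i/LIF. In cells moved to serum the medians were 1564 kb (line 34) and 928 kb (line 37), and in XS lines 30 and 31 they were 519 and 970 kb. In XS line 32 the median was 0. A region filled a median of 4.38% to 12.8% of its domain in the 7 other lists. One region was held by a pair of abutting domains in XS line 31; all others lay in a single domain in each list.

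The holding domains were long in the 2i/LIF lists, with median lengths of 424, 640 and 459 kb for lines 34, 35 and 37, compared with 134, 287 and 171 kb for the other domains of those lists. After the move to serum the holding domains had medians of 751 kb (line 34) and 553 kb (line 37), and the other domains 209 and 130 kb. For XS lines 30 and 31 the holding domains had medians of 345 and 581 kb and the others 155 and 285 kb. XS line 32 differed: its holding domains had a median of 75.4 kb and its others 83.2 kb. A longer domain meets a core region more easily, so a greater length of holding domains follows in part from how they were chosen. Of the lists of cells moved to serum and XS, line 37 moved to serum and XS line 31 lay within the 2i/LIF range of 424 to 640 kb, line 34 moved to serum above it and XS lines 30 and 32 below it. Within a line, the median was 751 kb after the move and 424 kb in 2i/LIF for line 34, and 553 and 459 kb for line 37.

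Single domains could carry many core regions. The domain with the most regions in the list of line 37 moved to serum, on chromosome 2 from 26690301 to 34040500 (7.35 Mb, mm9), held 31. In line 34 moved to serum the domain with the most was on chromosome 5 from 115447801 to 125097700 (9.65 Mb) and held 30. XS line 31 had 23 in a domain of chromosome 2 from 166834201 to 174790200 (7.96 Mb), and 2i/LIF line 34 had 17 in an overlapping domain from 166764001 to 173904900 (7.14 Mb). No domain of XS line 32 held more than 3. The shorter domains of XS line 32 made part of these breaks: of 1742 gaps between neighbouring core regions, 678 were broken by that list alone. Without it there were still 1698 regions, compared with 1758 with it.

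The edges of core regions depended mostly on XS line 32. At 94.2% of the 3516 edges exactly 1 list ended, and at 142 edges 2 lists did. XS line 32 had the most domains on these chromosomes, 3855, compared with 1723 to 2764 in the other wide lists. It ended at 82.0% of all edges, and at 77.6% it was the only list to end. XS line 30, the next, ended at 6.74%, 2i/LIF lines 37 and 34 at 5.69% and 5.43%, and the other 4 lists at 2.76% to 3.70%. Allowing 10 kb to either side, 77.8% of edges still had an end of 1 list only, and 5.57% had ends of at least 4 lists. Common borders of many lists were thus rare at core edges. This follows in part from the rule, since the end of 1 list is enough to make an edge.

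Neighbouring core regions on a chromosome were separated by gaps with a median of 161 kb (quartiles 57.2 and 462 kb). Of the 1742 gaps, 39.0% were under 100 kb, 19 were under 10 kb and 256 were over 1 Mb. A single list was responsible for 717 gaps, in the sense that all others covered the gap without a break, and in 678 of these it was XS line 32. The median length of these 678 gaps was 53.3 kb.

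Inside the 1698 regions that the 7 other lists shared, XS line 32 was present unevenly. It covered part of 1080 of them (63.6%), all of 79, and none of 618. Regions with core had a median length of 198 kb, and those without core a median of 81.9 kb. Where there was core, it filled a median of 54.6% of the region, and 393 regions held at least 2 separate core regions, with a maximum of 10. The regions without core added up to 64.1 Mb.

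The core was unevenly spread over chromosomes. Chromosome 11 had the highest share, 15.1% of its span in 189 regions, followed by chromosome 4 with 14.7% in 132 regions, chromosome 5 with 14.1% in 175 and chromosome 7 with 12.6% in 180. Chromosome 17 came next with 11.99% in 110 regions. Chromosome 3 had the lowest share, 2.53% in 54 regions, and chromosomes 14, 16, 1 and 10 had 4.18%, 4.46%, 4.67% and 5.32%. The highest share was 5.96 times the lowest, and the 5 highest chromosomes held 49.3% of the core on 32.8% of the span. Chromosome 4 had the longest regions, with a median of 96.2 kb, whereas chromosome 11 had more and shorter ones, with 15.9 regions per 10 Mb and a median of 62.4 kb. Chromosome 14 had the shortest median, 43.6 kb.

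The order of chromosomes did not follow the coverage of XS line 32, although that list set most of the edges. XS line 32 covered 38.4% of chromosome 16, more than of any other chromosome used, but only 11.6% of that coverage was core. On chromosome 11 it covered 27.2%, of which 55.4% was core, and on chromosome 3 it covered 34.6%, of which 7.30% was core. Seen from the 7-list regions, XS line 32 held 67.7% of their length on chromosome 4, 56.8% on chromosome 2 and 30.3% on chromosome 3. Over the 16 chromosomes, the Spearman correlation of the core share with the coverage of XS line 32 was 0.01. With the coverage of 2i/LIF line 34 it was 0.79, with the lists of lines 34 and 37 moved to serum 0.77 and 0.76 and with XS line 30 0.71. With the 2 widest lists, 2i/LIF line 35 and XS line 31, it was -0.09 and -0.23. These correlations describe 16 chromosomes, the core is part of every list it is correlated with, and no test is given.

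**Figure D2:**
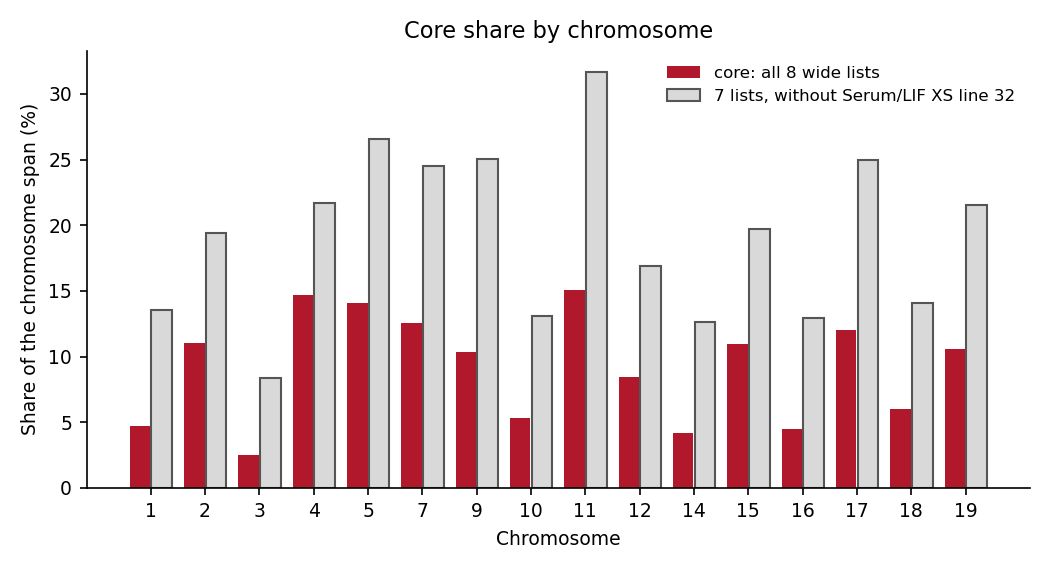
Share of each chromosome's span (%) in core regions (red) and in the regions common to the 7 lists other than XS line 32 (grey). Chromosome 11 is highest in both, at 15.1% and 31.7%, and chromosome 3 lowest in both, at 2.53% and 8.35%.

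The core lay more towards the distal end of the chromosomes, which in the mouse is the end away from the centromere. Over 10 equal parts of each chromosome's span, counted from the start of the coordinates, the core share was 2.12% in part 1, between 4.57% and 7.08% in parts 2 to 7, 10.6% in part 8, 18.0% in part 9 and 25.4% in part 10. The distal 50% of the span held 71.2% of the core length, and more than 50% of it on 14 of the 16 chromosomes; chromosomes 14 and 17 were the exceptions, with 25.4% and 33.1%. On chromosome 15, 97.9% of the core was in the distal 50%. The share in part 10 exceeded that in part 1 on 15 chromosomes, chromosome 17 being the exception with 7.07% and 9.20%. Part 10 had the highest share of all parts on only 6 of the 16 chromosomes. On the others the highest was one of parts 3 to 9. It was part 3 on chromosomes 14 and 17, and chromosome 14 had only 0.884% in part 10.

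The lists themselves differed in this slope. XS line 32 covered 41.7% of part 10 and 12.5% of part 1, and 2i/LIF line 34 covered 59.2% and 22.3%. By contrast, 2i/LIF line 35 covered 81.6% of part 10 and 73.3% of part 1. The rise was present before XS line 32 was added, as the 7-list regions made up 41.7% of part 10 and 7.39% of part 1. Within 5 Mb of the distal end of the span there were 144 core regions (20.3 Mb), and within 5 Mb of the start there were 40 (2.55 Mb).

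**Figure D3:**
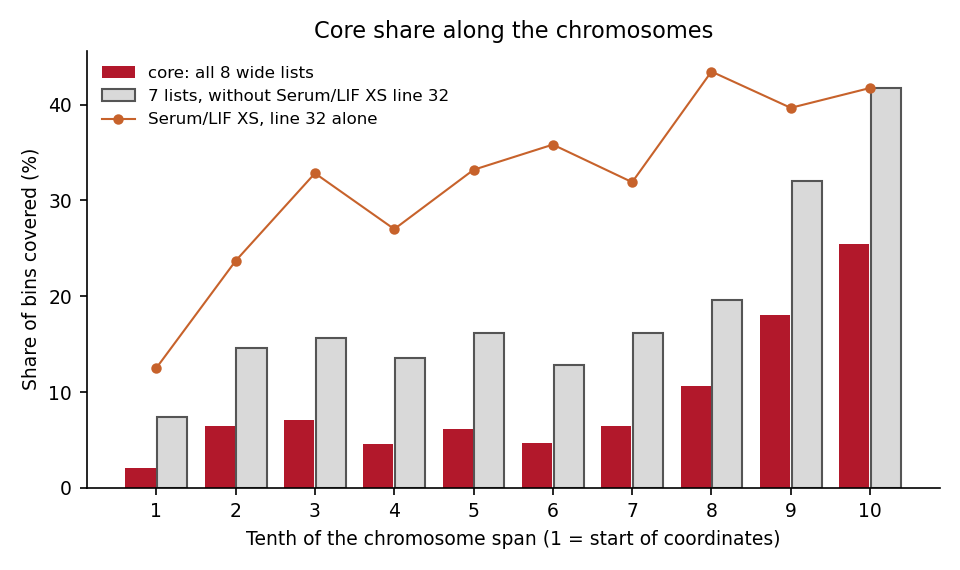
Share of bins (%) in core regions (red), in the regions common to the 7 lists other than XS line 32 (grey) and in the list of XS line 32 (orange line), in 10 equal parts of the span of the 16 chromosomes. The core share is 2.12% in part 1 and 25.4% in part 10.

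Cut into 405 windows of 5 Mb, the chromosomes held much of the core in few windows. A total of 44 windows (10.9%) held 50% of the core, and 137 windows (33.8%) held none, with a median of 2.60% per window. The densest windows, chosen after their values were seen, were on chromosome 4 from 138000201 to 143000000 with 72.3% core in 16 regions, chromosome 2 from 167996401 to 172996200 with 70.0% in 10 regions and chromosome 4 from 147999801 to 152999600 with 68.6% in 11 regions. In the first of them the 7 other lists covered 94.0% to 99.0% and XS line 32 covered 73.2%. In the second they covered 90.8% to 100% and XS line 32 covered 72.5%. Over the 10 densest windows, the 7 other lists covered 82.3% to 100% and XS line 32 covered 59.3% to 73.2%, the lowest share of any list in each window.

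The 10 longest core regions summed to 10.9 Mb, 5.89% of the core, with 4 on chromosome 4 and 3 on chromosome 2. Of the 10, 5 were identical to a domain of XS line 32. The longest was on chromosome 4 from 152534201 to 154042200 (1508 kb, mm9), 1.59 Mb from the distal end of the span. The 2i/LIF lists held it in domains of 3654, 3658 and 3636 kb for lines 34, 35 and 37. After the move to serum the domains were 8411 kb (line 34) and 3636 kb (line 37), and in XS lines 30, 31 and 32 they were 3636, 2366 and 1508 kb. The domains of 2i/LIF line 37, line 37 moved to serum and XS line 30 had the same ends, from 151232901 to 154869000. XS lines 31 and 32 shared the start at 152534201.

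Immediately before it lay the eighth longest region, from 151591701 to 152525100 (933 kb), separated by a gap of 9.10 kb. The 2i/LIF lists, both lists of cells moved to serum and XS line 30 covered the whole gap, XS line 31 covered none of it and XS line 32 covered 14.3%. Both regions and the gap together measured 2.45 Mb. The second longest region was also on chromosome 4, from 139237801 to 140680800 (1443 kb), in domains of 4316, 2984 and 1999 kb in 2i/LIF lines 34, 35 and 37. In lines 34 and 37 moved to serum they were 5933 and 4347 kb, and in XS lines 30, 31 and 32 they were 2505, 5886 and 1443 kb. The tenth longest lay on the same chromosome from 127419501 to 128321700 (902 kb), and its left end was set by line 37 moved to serum and its right end by XS line 32.

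**Figure D4:**
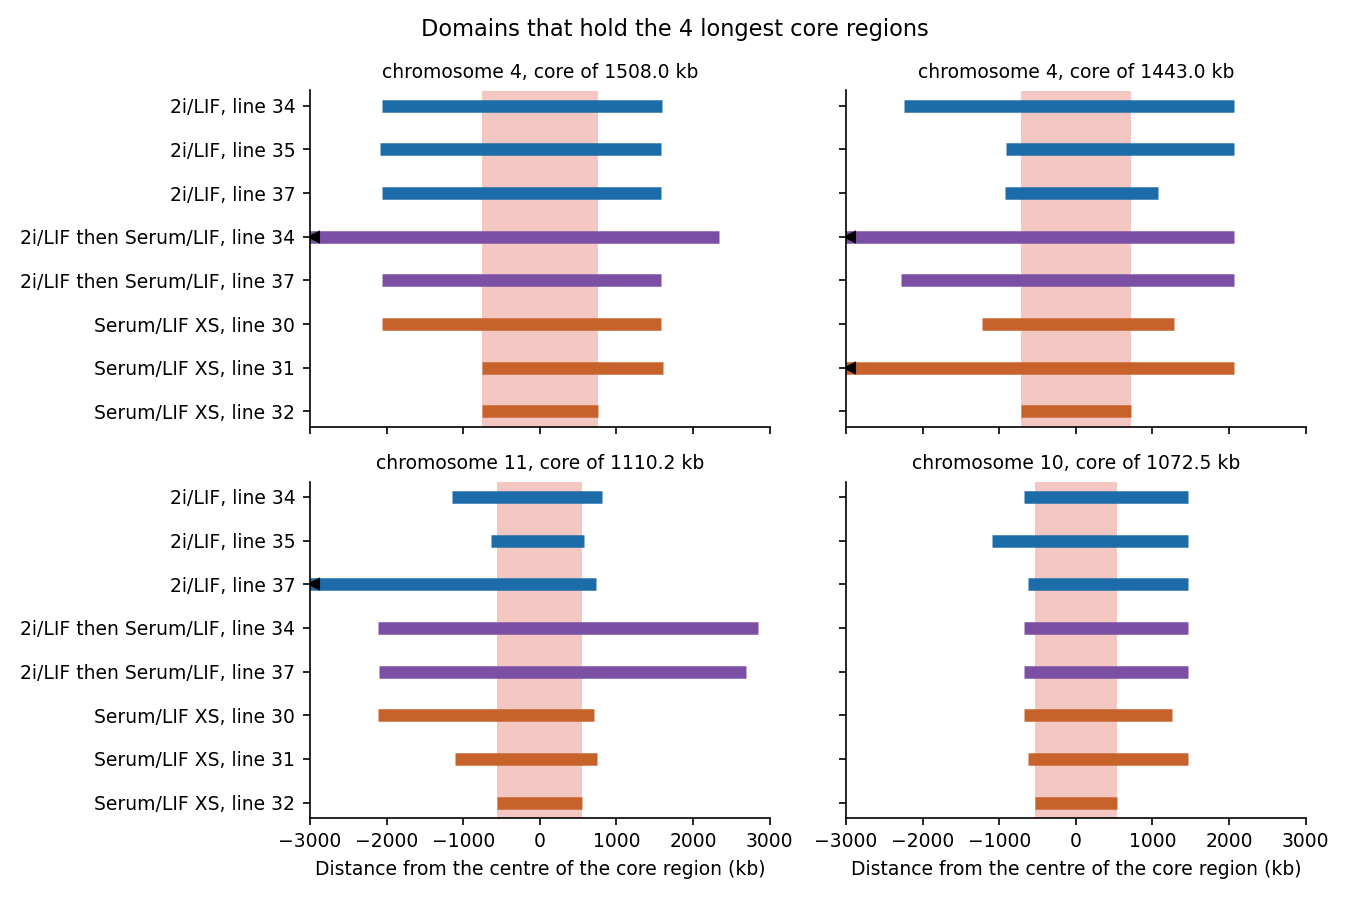
Domains (bars) that hold the 4 longest core regions in each of the 8 lists, by distance from the centre of the region (kb), coloured by culture; pink marks the core region and an arrowhead a domain that runs beyond the plotted window. In all 4 panels the domain of XS line 32 is the shortest and equals the core region, while the domains of the other 7 lists are 1217 kb or longer.

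The third longest region was on chromosome 11 from 118183001 to 119293200 (1110 kb), 2.42 Mb from the distal end of the span. Here 2i/LIF line 35, elsewhere among the widest lists, had a domain of only 1217 kb, compared with 1953 kb in line 34 and 3903 kb in line 37. In cells moved to serum the domains were 4957 kb (line 34) and 4788 kb (line 37). The fourth longest, on chromosome 10 from 79120601 to 80193100 (1073 kb), lay 49.5 Mb from the distal end, in the middle of the chromosome. Apart from XS line 32, where it was the whole domain, it was held in domains of 1925 to 2557 kb, with right ends between 80908100 and 81123900. The right end at 81123900 was common to 2i/LIF lines 35 and 37, lines 34 and 37 moved to serum and XS line 31.

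Chromosome 2 held the fifth longest region, from 168062701 to 169104000 (1041 kb), the seventh, from 178206601 to 179192000 (985 kb), and the ninth, from 172107001 to 173018300 (911 kb). The fifth and the ninth lay in the same domain in each of the 2i/LIF lists and in XS line 31, and in different domains in lines 34 and 37 moved to serum and XS lines 30 and 32. The sixth longest, on chromosome 12 from 108313401 to 109306600 (993 kb), was held in domains of 2009 to 2055 kb in the 2i/LIF lists and XS lines 30 and 31.

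On the other chromosomes the longest regions were 822 kb on chromosome 15 (73648901 to 74470500), 820 kb on chromosome 18 (82954301 to 83774600), 710 kb on chromosome 5 (114553401 to 115263200), 670 kb on chromosome 7 (37889801 to 38559300) and 545 kb on chromosome 14 (25681501 to 26226200). On chromosomes 16, 9, 3, 17, 19 and 1 they measured 337 to 436 kb. The one on chromosome 3, the chromosome with the least core, ran from 89118901 to 89502400 (384 kb). No gene is assigned to any region, because the gene table at hand is of GRCm38.p6 and the lists are of mm9.

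The authors' score, divided here by the number of bins in a domain, was higher in domains that held core than in other domains of the same list, in all 8 lists. Since the scale of the score is not explained in the sources used here, it is compared only within a list. In 2i/LIF the medians were 0.914 and 0.842 for line 34 (803 holding domains and 1401 others), 0.795 and 0.688 for line 35 and 0.855 and 0.764 for line 37. In cells moved to serum they were 0.911 and 0.836 for line 34 and 0.929 and 0.851 for line 37. In the XS lists they were 0.737 and 0.660 for line 30, 0.689 and 0.608 for line 31 and 0.816 and 0.773 for line 32. The difference averaged 0.0781 ± 0.0181 (SD over 8 lists) and was 0.0435 in XS line 32. This average only summarises the within-list differences, as the scale may differ between lists. The SD is not a spread over independent lines, since lines 34 and 37 enter both in 2i/LIF and after the move. The quartile ranges of both kinds of domain overlapped in every list.

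The difference was also present when all holding domains were set against other domains at least as long as the list's median holding domain. Holding domains of every length were kept, so length was not matched. The difference then averaged 0.0858 and ran from 0.0395 in line 37 moved to serum to 0.135 in 2i/LIF line 35. In lines 34 and 37 moved to serum it was 0.0417 and 0.0395, compared with 0.0750 and 0.0774 against all other domains. It also fell in XS line 31, from 0.0808 to 0.0720, and rose in the remaining lists. The number of such long other domains was 82 to 488 in the 7 other lists and 1152 in XS line 32.

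**Figure D5:**
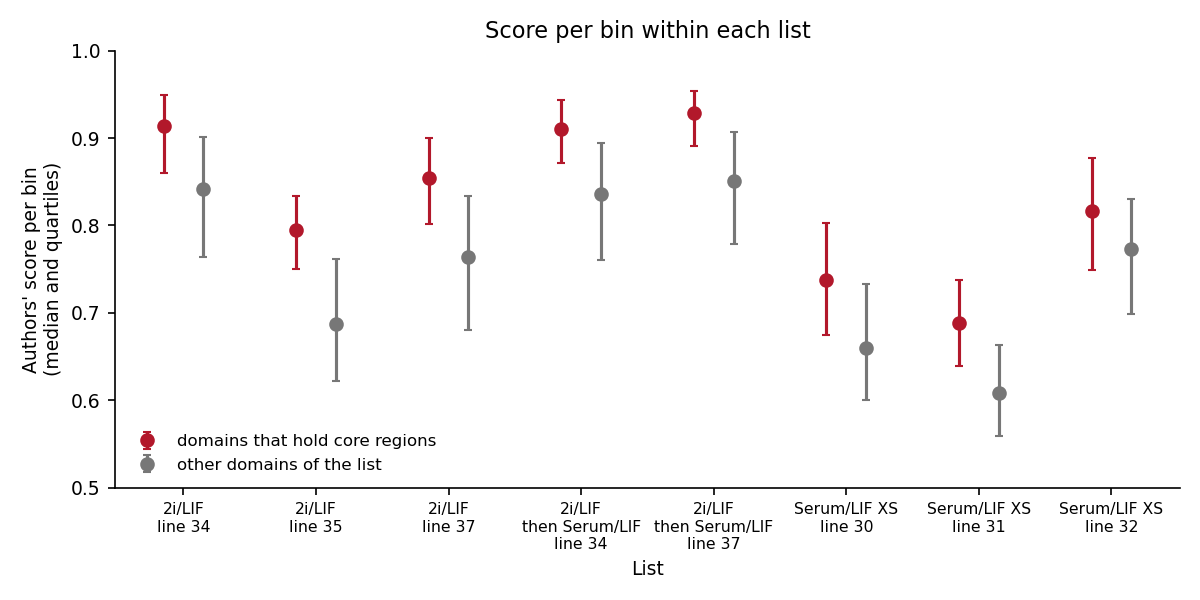
The authors' score per bin (vertical axis, from 0.5 to 1) in domains that hold core regions (red) and in the other domains (grey) of each list; points are medians over domains and bars run between the quartiles. The red median is above the grey one in all 8 lists, and the quartile ranges overlap in each.

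By region, the domain that held a core region stood on average over the 8 lists at the 72.4th percentile of score per bin in its list (median over regions, quartiles 61.4 and 81.3). The median percentile was 75.5 to 78.5 in 2i/LIF, 82.1 and 83.4 in lines 34 and 37 moved to serum, and 69.9, 79.9 and 59.9 in XS lines 30, 31 and 32. A domain counts here once per region it holds. Counted once per holding domain, the medians were 69.5, 75.4 and 72.7 in 2i/LIF lines 34, 35 and 37. They were 72.8 and 75.2 in lines 34 and 37 moved to serum, and 65.9, 71.1 and 61.0 in the XS lists. Longer regions tended to stand higher, with a Spearman correlation of 0.35 over 1758 regions, which share domains and lists and are not independent. Among regions of at least 10 bins, the highest mean percentile, 98.4, was on chromosome 10 from 80645501 to 80900300 (255 kb), in the same 7 domains as the fourth longest region. The next were on chromosome 4 from 151457801 to 151548800 (91.0 kb), shortly before the eighth longest, with 98.0, and on chromosome 9 from 107556801 to 107638700 (81.9 kb) with 97.9.

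Among regions of at least 10 bins, the lowest mean percentile, 21.2, was that of a region on chromosome 4 from 109647201 to 109718700 (71.5 kb). Its percentiles were 12.2, 30.3 and 61.8 in 2i/LIF lines 34, 35 and 37, 29.0 and 18.7 in lines 34 and 37 moved to serum and 1.61, 12.4 and 3.74 in XS lines 30, 31 and 32. A region on chromosome 7 from 26769601 to 26913900 (144 kb) had a mean of 26.2, and its right end was shared by the domains of all 8 lists and abutted bins in no list. The third lowest, on chromosome 17 from 51970101 to 52002600 (32.5 kb), had 29.8. Being in all 8 lists thus did not mean a high score in each of them.

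The median distance of a core region to the nearest bin in none of the 10 lists was 729 kb, 38 regions abutted such a bin and 2.28% were within 10 kb of one. Counted by bins, the median was 996 kb for core bins and 702 kb for bins in 1 to 7 wide lists. It was not ordered by the number of lists, with 697 kb for bins in exactly 7 lists, 1156 kb for those in 4 and 174 kb for those in 1.

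A value in column 5 of the lists, whose meaning is not explained in the sources used here, was slightly closer to 0 in domains that held core. Its median in 2i/LIF was -1.08 in holding and -1.21 in other domains of line 34, -1.26 and -1.49 in line 35 and -1.68 and -1.88 in line 37. In cells moved to serum it was -0.53 and -0.60 in line 34 and -2.78 and -3.05 in line 37, and in XS lines 30, 31 and 32 the pairs were -5.27 and -5.42, -4.85 and -5.01, and -9.17 and -9.28. The difference had the same sign in all 8 lists. Values above 0 occurred in 15.8% of the holding and 17.5% of the other domains of line 34 moved to serum. In 2i/LIF line 34 the shares were 0.374% and 2.86%. The share was lower in holding than in other domains in 7 of the 8 lists, XS line 31 being the exception with 0.578% and 0.432%.

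The S lists, which the choice of regions did not use, shared almost nothing with the core. The 22 S domains of line 35 on these chromosomes (863 kb) shared no bin with it. Of the 104 S domains of line 37 (7.76 Mb), 1 did, over 11.7 kb or 0.151% of that list's length, compared with 9.15% of the span in the core. It was on chromosome 4 from 118220701 to 118241500 (20.8 kb) and overlapped a core region from 118229801 to 118257100 (27.3 kb). The value in column 5 was 5.27 in this S domain and -8.34 to -0.458 in the wide-list domains that held the region. No further S domain came within 10 kb of a core region. Most of the S length, 63.7% in line 35 and 56.1% in line 37, was in none of the wide lists, compared with 7.95% of the whole span. With 22 and 104 domains and no test, this is a count and not a measure of avoidance.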

How the data were processed

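Per the submitters' processing notes, reads were aligned to mm9 with Bowtie2 2.0.6. How domains were called, and against which control, is not given in the sources used here. The lists as deposited by the authors give per domain its position, a state, a score and, in column 5, another value. The score deposited by the authors, of unexplained scale, was at most 1 per bin. Coordinates are 1-based. Lists were turned into bins of 1300 bp over the span of each chromosome that the lists reach, all 8 wide lists were intersected and adjacent bins joined. This step was tested on simulated lists. Percentiles are ranks of score per bin within a list. No value is based on a test. Regions named are the 10 longest, the longest of each chromosome, the 3 highest and 3 lowest in mean percentile among regions of at least 10 bins, and any sharing a bin with an S domain. Members, lists and alternatives were chosen with earlier results of these data known. The 3 inputs, the IgG control and the S sample of line 34, of 15 samples, have no list analysed here. Gene annotation was not used, because the table at hand is of GRCm38.p6: its last gene on chromosome 1 ends at 195291439, and a domain ends at 197194400. Sequences of mm9 were not used here. Analyses used Python 3.11.15, numpy 2.4.6, pandas 2.3.3, scipy 1.17.1 and matplotlib 3.10.9.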

Additional observations from a re-analysis of the deposited data

How the results depend on the processing

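The size of the core rested on XS line 32. Leaving out each list in turn gave 1698 to 1866 regions over 186 to 383 Mb, or 9.21% to 18.97% of the span. Chromosome 11 then had 15.1% to 31.7% and chromosome 3 2.53% to 8.35%, and they remained the highest and the lowest each time. In every case the upper value was that without XS line 32, except for the number of regions, which was highest without XS line 30; the other 7 omissions gave at most 193 Mb. Asking for at least 7 of 8 lists gave 406 Mb (20.1%). With the higher-scoring 50% of each list, 565 regions over 84.9 Mb (4.20%) were left, which follows from fewer domains entering. A minimum domain length of 10 kb, joining over less than 10 kb, all 19 autosomes, the lists of cells moved to serum as 1 list, domains extended by 1 bin, domains with a value in column 5 below 0, and bins in any list as denominator moved these values by less than 1.5 times. The mean difference in score per bin became 0.108 when domains were weighted by core length. It was run only with this weighting, against the long other domains and without each list in turn, and stayed positive in each. Leaving each list out of these measures too, a setting chosen after seeing the data, gave a mean score difference of 0.0739 to 0.0831 and put 64.5% to 71.3% of the core length in the distal 50% of the span, the lowest share being that without XS line 32. No paired analysis was possible because the results are descriptions with no test into which a block could enter; lines 34 and 37, listed both in 2i/LIF and after the move, can only be set side by side, and the difference in score per bin was 0.0750 after the move and 0.0719 in 2i/LIF for line 34, and 0.0774 and 0.0912 for line 37. Without read counts, the depth cannot be used to judge any list.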

Other observations

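On the 3 chromosomes left out of the core, the same intersection gave 1 region each. It measured 52.0 kb on chromosome 6 (115893701 to 115945700, mm9), 36.4 kb on chromosome 8 (12928501 to 12964900) and 36.4 kb on chromosome 13 (56852901 to 56889300). On chromosome 13, the 7 lists other than XS line 32 shared 14.9% of the span, within the range of the chromosomes used, and on chromosomes 6 and 8 they shared 0.0355% and 0.0304%. XS line 32 covered only 0.0821% of chromosome 13. Line 37 moved to serum covered only 0.0355% of chromosome 6 and 0.280% of chromosome 8, and line 34 moved to serum 4.37% and 1.16%.

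The longest stretch without core on a chromosome used was 52.3 Mb of chromosome 16, from 35280701 to 87608300. XS line 32 covered 55.3% of it, XS line 31 87.6%, XS line 30 39.3% and 2i/LIF line 35 80.5%, while 2i/LIF lines 34 and 37 covered 7.96% and 23.6% and lines 34 and 37 moved to serum 16.8% and 18.6%.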
